A study of Mus musculus with 8 samples.

Results

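The 36 genes described here encode the enzymes of glycolysis and of the pentose phosphate pathway, the enzymes at the entry points and exits of those pathways, and 4 genes of the response to low oxygen. They were chosen by symbol from the deposited table of 52997 gene symbols, with the condition that a gene had at least 20 counts summed over the 8 libraries. All 36 met the condition, and all 36 also had enough counts to be among the 11490 genes tested. RNA had been sequenced from liver CD4+ T cells of C57BL/6 mice with Aire knocked out and a Foxp3-GFP reporter, and the sort kept live CD45+ TCRb+ cells without GFP. There were 2 libraries of PD-1+ cells at 10 days of age, 2 of PD-1+ cells at 5 days, 2 of PD-1- cells at 10 days and 2 of PD-1- cells at 5 days. PD-1, the product of Pdcd1, is an inhibitory receptor that appears on T cells after antigen stimulation. Every mouse lacked Aire, the thymic regulator that drives display of tissue antigens to developing T cells, and no Aire-sufficient mice were sampled. Each library came from 1000 sorted cells, and the labels number the 10-day libraries 1 and 2 and the 5-day libraries 2 and 3 without saying whether a number is an animal. Each p-value therefore measures the spread between these libraries, which may in part be technical. In tests over both ages, that spread also takes in any change of the PD-1 difference with age.

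Glycolysis splits glucose into pyruvate in the cytoplasm, and lactate dehydrogenase turns that pyruvate into lactate, which regenerates the NAD+ the pathway needs. The pentose phosphate pathway branches off at glucose 6-phosphate, its oxidative arm making NADPH and its non-oxidative arm interconverting sugars to supply ribose. Pyruvate can instead enter mitochondria through pyruvate dehydrogenase, which the Pdk kinases switch off. Resting T cells are known for low glycolytic rates, and activated T cells for high ones even in the presence of oxygen. The transcription factor HIF-1 alpha, whose protein is destroyed in the presence of oxygen through prolyl hydroxylases such as Egln3, is known to raise transcription of many of these genes, including Ldha, Pgk1, Pdk1, Bnip3, Egln3 and P4ha1.

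Library totals ranged from 1473216 to 3019551 counts, and Spearman correlations between the 2 libraries of a group were 0.958 to 0.971. Values are given as CPM, the usual unit of counts scaled to library size, here with a TMM factor, in the order of the library numbers. Pdcd1 had 696 and 499 CPM at 10 days and 317 and 269 CPM at 5 days in PD-1+ libraries, against 0.568 to 1.95 CPM in PD-1- libraries, so the libraries matched their PD-1 labels. Although the sort left out cells with GFP, Foxp3 had 5.51 to 10.4 CPM in PD-1- libraries (10 to 32 counts). In PD-1+ libraries it had 0 to 0.955 CPM (0 to 2 counts). The 10 CD4 T cell markers summed to 5763 to 9227 CPM in PD-1+ libraries and to 6173 to 7025 CPM in PD-1- libraries. Both 5-day libraries numbered 3 carried counts of Y-linked genes, 601 in PD-1+ and 672 in PD-1- cells, with 1 and 5 counts of Xist, and the other 6 libraries carried 698 to 1842 counts of Xist and no Y-linked count. Sex was thus partly mixed with age. Pgk1, G6pdx and Pdha1 are X-linked.

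The sequence upstream of these genes is shown because HIF-1 and its relatives bind a core that often reads ACGTG, and MYC and USF factors bind CACGTG, which contains ACGTG on both strands and so counts as 2 matches. RefSeq promoter windows on GRCm38.p6, from 250 bases before to 50 bases after a start site, were found for all 36 genes. Below are the 250 bases before the start for 6 genes picked from the 36, read 5′ to 3′ on the strand of the gene, with each ACGTG or its reverse complement CACGT in capitals.
Ldha, chr7:46845554-46845803, plus strand: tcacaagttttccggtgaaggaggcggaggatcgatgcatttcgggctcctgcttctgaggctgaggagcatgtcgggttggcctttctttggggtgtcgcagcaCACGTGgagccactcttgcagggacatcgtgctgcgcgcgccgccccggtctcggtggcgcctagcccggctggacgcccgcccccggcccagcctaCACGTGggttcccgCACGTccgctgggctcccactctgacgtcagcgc
Pgk1, chrX:106186850-106187099, plus strand: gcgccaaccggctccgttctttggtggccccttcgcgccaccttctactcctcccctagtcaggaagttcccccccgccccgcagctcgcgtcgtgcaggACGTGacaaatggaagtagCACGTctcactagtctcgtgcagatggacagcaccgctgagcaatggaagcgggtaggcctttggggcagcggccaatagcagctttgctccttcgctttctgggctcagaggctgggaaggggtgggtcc
Hk2, chr6:82774455-82774704, minus strand: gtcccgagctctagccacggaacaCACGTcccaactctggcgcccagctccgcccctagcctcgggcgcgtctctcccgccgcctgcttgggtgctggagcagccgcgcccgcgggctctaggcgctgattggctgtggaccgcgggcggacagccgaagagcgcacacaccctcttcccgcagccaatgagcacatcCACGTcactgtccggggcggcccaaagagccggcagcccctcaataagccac
Egln3, chr12:54203875-54204124, minus strand: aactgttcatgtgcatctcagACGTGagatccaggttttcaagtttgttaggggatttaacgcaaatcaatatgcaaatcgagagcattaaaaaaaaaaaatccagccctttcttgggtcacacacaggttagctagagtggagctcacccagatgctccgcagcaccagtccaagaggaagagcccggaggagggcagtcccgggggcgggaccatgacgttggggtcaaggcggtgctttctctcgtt
P4ha1, chr10:59323046-59323295, plus strand: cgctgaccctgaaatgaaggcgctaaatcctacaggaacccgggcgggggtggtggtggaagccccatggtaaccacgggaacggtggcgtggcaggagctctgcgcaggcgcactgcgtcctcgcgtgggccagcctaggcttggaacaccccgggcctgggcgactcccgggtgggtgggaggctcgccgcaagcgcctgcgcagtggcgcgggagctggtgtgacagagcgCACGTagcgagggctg
Pdk1, chr2:71872974-71873223, plus strand: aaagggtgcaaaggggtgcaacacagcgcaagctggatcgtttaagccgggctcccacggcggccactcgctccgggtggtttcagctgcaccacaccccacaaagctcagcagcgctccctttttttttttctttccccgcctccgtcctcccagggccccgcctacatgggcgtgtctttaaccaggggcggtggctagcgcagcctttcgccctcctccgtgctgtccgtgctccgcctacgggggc
The Ldha window held 5 matches, of which 4 belonged to 2 copies of CACGTG. The Pgk1 and Hk2 windows held 2 matches each, and those of Egln3 and P4ha1 held 1 each. Neither of the 2 Pdk1 windows in the RefSeq table held a match, nor did the other Ldha window. Over the whole set, 19 of 36 genes (52.8%) had ACGTG in at least 1 window, against 5886 of 27025 genes in the table (21.8%). CACGTG was found for 6 of 36 (16.7%), against 8.09% of all genes. Among the genes with ACGTG were 14 of the 20 members called higher in PD-1+ cells (70%), 1 of the 3 lower members (33.3%) and 4 of the 13 members not called (30.8%). The higher members without a match in any window were Gpi1, Pfkl, Pfkp, Tpi1, Eno1 and Tkt. None of them is shown above, and the higher members that are shown all have a match. These are shares of letter matches, base composition was not allowed for, and no binding was measured.

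The 36 genes together held 0.914 and 0.886% of all counts in 10-day PD-1+ libraries and 1.98 and 1.62% in 5-day PD-1+ libraries, against 0.582 and 0.548% in 10-day and 0.603 and 0.572% in 5-day PD-1- libraries. Every PD-1+ library lay above every PD-1- library, and both 5-day PD-1+ libraries lay above both at 10 days. Per kilobase of exon, the highest levels in PD-1+ cells were those of Ldha, with 1097 CPM per kb in PD-1+ and 325 CPM per kb in PD-1- cells, and Aldoa, with 783 and 140 CPM per kb. Pkm had 395 CPM per kb in PD-1+ and 155 CPM per kb in PD-1- cells, above Aldoa in PD-1- cells. Tpi1, Eno1 and Gapdh stood at 314, 141 and 139 CPM per kb in PD-1+ cells, against 36.5, 52.8 and 33.5 CPM per kb in PD-1- cells. Hif1a reached 99.6 CPM per kb in PD-1+ and 25.3 CPM per kb in PD-1- cells. At the low end in PD-1+ cells, Rpia, Pfkfb4, Aldoc and Eno3 had 0.485, 1.67, 2.95 and 3.97 CPM per kb in PD-1+ cells, against 1.09, 2.68, 1.32 and 5.63 CPM per kb in PD-1- cells. Hk2 had 4.66 CPM per kb in PD-1+ cells and, at 0.231 CPM per kb, the lowest level of the 36 genes in PD-1- cells. Several of these genes have processed pseudogenes, and a share of their 25-base windows, the read length used, occurs in transcripts of other genes: 60.2% for Bnip3, 55.2% for Pgk1, 38.0% each for Pkm and Ldhb, 37.5% for Pgam1, 29.4% for Eno1, 29.0% for Gapdh, 24.1% for Ldha and 22.1% for Aldoa. The share was 27.8% for G6pdx and 24.2% for Gpi1. How reads that fit several places were counted is not given in the sources used here, and the levels of all these genes are uncertain to that extent. In bulk samples, fewer cells of a type and less RNA per cell cannot be told apart.

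**Figure D1:**
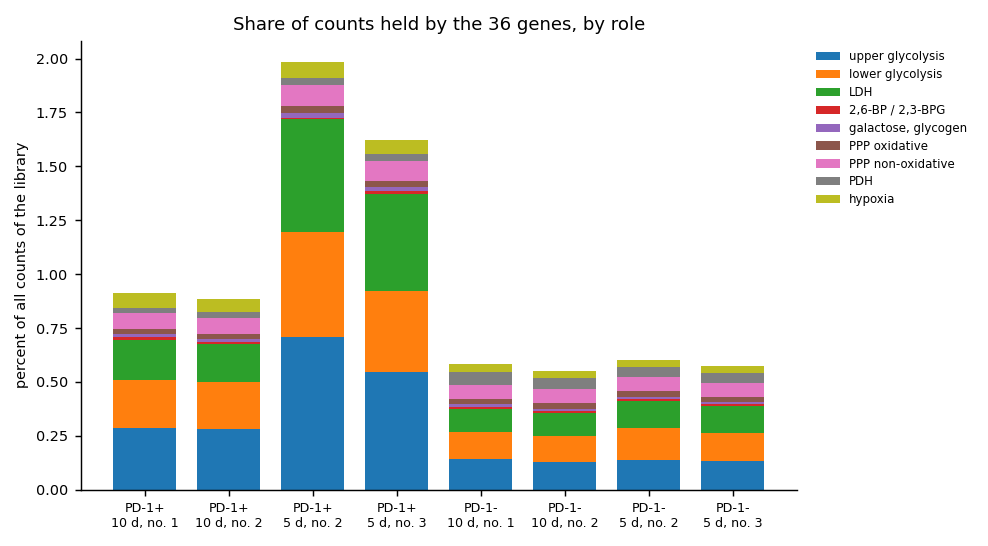
Percent of all counts of a library held by the 36 genes (y axis, from 0), stacked by role, for each of the 8 libraries (x axis, PD-1+ left of PD-1-). The 5-day PD-1+ libraries reach 1.98 and 1.62%, the 10-day PD-1+ libraries 0.914 and 0.886%, and the PD-1- libraries 0.548 to 0.603%.

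PD-1+ cells had more RNA of glycolytic genes than PD-1- cells along the whole pathway, while most pentose phosphate genes were not called. Over both ages, 20 of 36 genes were higher in PD-1+ cells, 3 were lower and 13 were not called at an edgeR Benjamini-Hochberg adjusted p below 0.05. Over all genes tested, 21.9% were higher and 19.6% lower, 41.4% in all. The median log2 fold change of the 36 genes was 1.15, against -0.01 over all genes tested. Of the 17 genes from hexokinase to lactate dehydrogenase, 13 were higher, 1 was lower and 3 were not called, with a median of 1.26. Each enzymatic step of that stretch had at least 1 gene that was higher. Of the 7 pentose phosphate genes, 1 was higher and 6 were not called, with a median of 0.30. The 4 PD-1+ libraries all lay above the 4 PD-1- libraries for 18 genes (50%) and all below for 3 (8.33%), against 17.2% and 17.5% of all genes tested.

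At 10 days, PD-1+ cells had 18 higher and 3 lower genes, against 16.4 and 12.9% of all genes tested (29.3% in all). At 5 days, 21 were higher and 2 lower, against 17.6 and 16.7% (34.3% in all). The median log2 fold change was 0.62 at 10 days and 1.17 at 5 days. Higher at both ages were 17 genes, and 1 gene, Pdk1, was lower at both, against 10.5 and 8.76% of all genes tested. The 2 ages share no library, but their tests share 1 estimate of the spread, taken over all 8 libraries. The calls at the 2 ages are therefore not independent. Of the 18 higher calls at 10 days, 9 were lost when single libraries were left out, and of the 21 higher calls at 5 days 1 was lost. Losses among the lower calls are given with Ldhb, Pdk1 and Pdha1 below. Hk2 lost its 10-day call without 10-day PD-1- library 1 (edgeR adjusted p = 0.0641), Gpi1 without 10-day PD-1- library 2 (0.0786), Eno1 without 10-day PD-1- library 1 (0.0944) or 10-day PD-1+ library 1 (0.0576), and Egln3 without 10-day PD-1- library 1 (0.125) or 10-day PD-1+ library 1 (0.0774). Aldoc and Pgam1 lost theirs without any of 10-day PD-1- library 1, PD-1+ library 1 and PD-1- library 2, with edgeR adjusted p of 0.0739 to 0.101 for Aldoc and 0.0561 to 0.133 for Pgam1. Pgm2 lost its call without 10-day PD-1- library 1, PD-1+ library 1 or 10-day PD-1+ library 2 (edgeR adjusted p 0.0579 to 0.192) and Pfkfb3 without 10-day PD-1+ library 1, PD-1- library 2 or 10-day PD-1+ library 2 (0.0720 to 0.218). Tkt kept its 10-day call without 10-day PD-1- library 1 or the 5-day PD-1- library 2, and lost it without each of the other 6 libraries (edgeR adjusted p 0.0520 to 0.264).

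**Figure D2:**
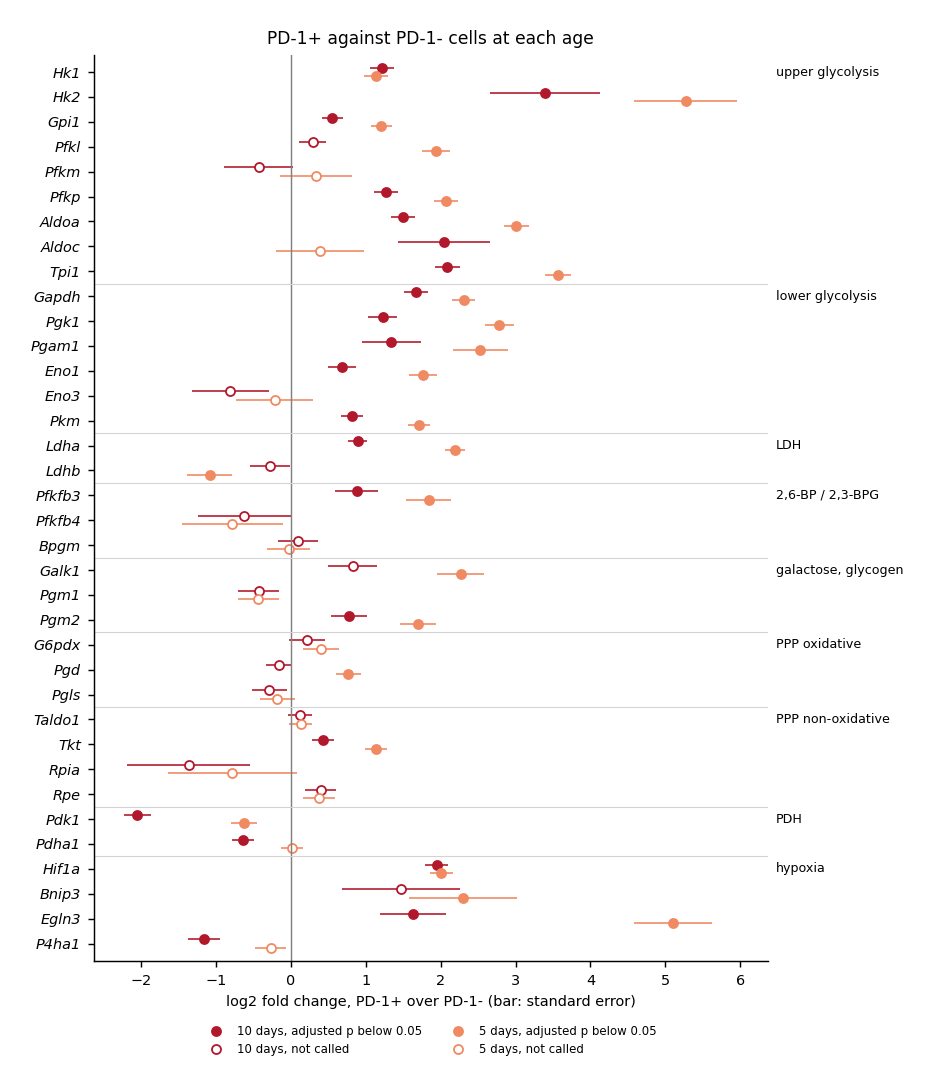
log2 fold change of PD-1+ over PD-1- cells (x axis) for each of the 36 genes (y axis, grouped by role) at 10 days (dark red) and 5 days (orange), with standard errors as bars and filled points for an adjusted p below 0.05. Hk2, Egln3, Tpi1 and Aldoa lie farthest to the right at 5 days, at 5.27, 5.10, 3.56 and 3.01, and Pdk1 farthest to the left at 10 days, at -2.05.

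Hexokinases trap glucose as glucose 6-phosphate, and both isoforms measured were higher in PD-1+ cells. Hk1 had 222 and 226 CPM in 10-day and 228 and 219 CPM in 5-day PD-1+ libraries, against 92.6 and 100.2 CPM in 10-day and 109.5 and 92.6 CPM in 5-day PD-1- libraries. The groups did not overlap, and the 4 PD-1+ libraries were nearly level. Hk1 was 2.26-fold higher in PD-1+ cells (1.18 ± 0.13 on the log2 scale, edgeR adjusted p = 3.74e-06). Hk2, the inducible isoform, had 8.90 and 15.8 CPM at 10 days and 47.9 and 38.7 CPM at 5 days in PD-1+ cells, against 0.324 and 2.60 CPM at 10 days and 0.324 and 2.27 CPM at 5 days in PD-1- cells, the PD-1- values resting on 10 counts in all against 244 counts in PD-1+ libraries. It had the largest log2 fold change of the 36 genes, 4.47 ± 0.56 (edgeR adjusted p = 2.57e-05), and the libraries did not overlap.

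Gpi1, the isomerase that makes fructose 6-phosphate, had 530.3 and 557 CPM in 10-day and 883 and 838 CPM in 5-day PD-1+ libraries, against 407 and 334 CPM in 10-day and 371 and 375 CPM in 5-day PD-1- libraries. It was 1.84-fold higher in PD-1+ cells (edgeR adjusted p = 0.000268), and no libraries overlapped. Phosphofructokinase, the main control point of glycolysis, is encoded by a liver-type, a muscle-type and a platelet-type gene. Pfkp, the platelet type, had 483 and 383 CPM at 10 days and 854 and 689.9 CPM at 5 days in PD-1+ cells, against 184 and 175 CPM at 10 days and 183 and 184 CPM at 5 days in PD-1- cells. Its log2 fold change was 1.67 ± 0.17 (edgeR adjusted p = 2.73e-06), and PD-1+ libraries lay above all PD-1- libraries at both ages. Pfkl, the liver type, had 142 and 158 CPM in 10-day and 384 and 307 CPM in 5-day PD-1+ libraries, against 110.4 and 136 CPM in 10-day and 100.1 and 79.5 CPM in 5-day PD-1- libraries. The 10-day PD-1+ libraries lay just above the PD-1- libraries and the 5-day ones well above. Pfkl was higher over both ages by 1.12 ± 0.33 (edgeR adjusted p = 0.0271) and at 5 days by 1.94 ± 0.18 (edgeR adjusted p = 6.86e-07), and was not called at 10 days, with 0.29 ± 0.18 (edgeR adjusted p = 0.244). Its call over both ages was lost without 10-day PD-1- library 1 (edgeR adjusted p = 0.0519), 5-day PD-1- library 2 (0.112), 5-day PD-1- library 3 (0.0537) or 5-day PD-1+ library 3 (0.0612). Pfkm, the muscle type, had 13.2 and 13.7 CPM at 10 days and 7.21 and 24.8 CPM at 5 days in PD-1+ cells, against 20.7 and 15.0 CPM at 10 days and 12 and 13.6 CPM at 5 days in PD-1- cells, and its groups overlapped (-0.06 ± 0.35 log2, edgeR adjusted p = 0.915).

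Aldolase splits fructose 1,6-bisphosphate, and Aldoa is its form in most tissues. Aldoa had 1097 and 1054 CPM in 10-day and 4103 and 2865 CPM in 5-day PD-1+ libraries, against 398 and 364 CPM in 10-day and 449.8 and 415 CPM in 5-day PD-1- libraries. All PD-1+ libraries lay above all PD-1- libraries, and the 5-day PD-1+ libraries stood apart from those at 10 days. It was 2.82-fold higher in PD-1+ cells at 10 days (edgeR adjusted p = 1.98e-06) and 8.05-fold higher at 5 days (edgeR adjusted p = 2.31e-09). Aldoc, the brain form, had 12.5 and 10.9 CPM at 10 days and 10.8 and 4.30 CPM at 5 days in PD-1+ cells, against 2.91 and 2.60 CPM at 10 days and 4.86 and 6.81 CPM at 5 days in PD-1- cells, and was called at 10 days (2.05 ± 0.62 log2, edgeR adjusted p = 0.0186) and neither at 5 days nor over both ages. Aldoc was called over both ages without 5-day PD-1- library 3 (edgeR adjusted p = 0.0361) or 5-day PD-1+ library 3 (0.0158). Triosephosphate isomerase, Tpi1, had 367 and 345 CPM in 10-day and 1556 and 1193 CPM in 5-day PD-1+ libraries, against 78.0 and 90.4 CPM in 10-day and 108 and 126 CPM in 5-day PD-1- libraries. Its groups did not overlap, and the 5-day PD-1+ libraries stood above those at 10 days. It was 4.25-fold higher in PD-1+ cells at 10 days (edgeR adjusted p = 8.18e-08) and 11.8-fold higher at 5 days (edgeR adjusted p = 8.83e-10).

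In the lower stretch of the pathway, which yields ATP, 5 of 6 genes were higher in PD-1+ cells and 1, Eno3, was not called. Gapdh, which oxidises glyceraldehyde 3-phosphate, had 409 and 388 CPM at 10 days and 821 and 682 CPM at 5 days in PD-1+ cells, against 117 and 134 CPM at 10 days and 159 and 144 CPM at 5 days in PD-1- cells. It was 3.98-fold higher in PD-1+ cells over both ages (edgeR adjusted p = 1.48e-07), and the libraries did not overlap. Phosphoglycerate kinase, Pgk1, had 102 and 102 CPM in 10-day and 364 and 276 CPM in 5-day PD-1+ libraries, against 42.4 and 44.9 CPM in 10-day and 50.2 and 42.0 CPM in 5-day PD-1- libraries. The 5-day PD-1+ libraries were the highest, the 10-day PD-1+ libraries next, and all 4 exceeded the PD-1- libraries. Its log2 fold change was 1.22 ± 0.19 at 10 days (edgeR adjusted p = 0.000147) and 2.78 ± 0.19 at 5 days (edgeR adjusted p = 2.06e-08).

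Pgam1, the phosphoglycerate mutase, had 17.5 and 12.3 CPM at 10 days and 49.9 and 46.3 CPM at 5 days in PD-1+ cells, against 5.83 and 5.85 CPM at 10 days and 9.40 and 6.81 CPM at 5 days in PD-1- cells, and was 4.01-fold higher over both ages (edgeR adjusted p = 0.000124). The enolase Eno1 had 384 and 367 CPM in 10-day and 1318 and 959.6 CPM in 5-day PD-1+ libraries, against 227 and 242 CPM in 10-day and 395 and 272 CPM in 5-day PD-1- libraries. The ranges of all PD-1+ and all PD-1- libraries overlapped, through 5-day PD-1- library 2, although within each age they did not. Eno1 was 2.35-fold higher in PD-1+ cells over both ages (edgeR adjusted p = 0.00130). Its muscle isoform Eno3 had 3.92 and 7.38 CPM at 10 days and 8.23 and 8.12 CPM at 5 days in PD-1+ cells, against 9.07 and 11.1 CPM at 10 days and 9.40 and 9.65 CPM at 5 days in PD-1- cells. Its PD-1+ libraries all lay below the PD-1- libraries, and it was not called (-0.51 ± 0.37 log2, edgeR adjusted p = 0.281). Pyruvate kinase, Pkm, had 1338 and 1281 CPM in 10-day and 3024 and 2255 CPM in 5-day PD-1+ libraries, against 737 and 750.0 CPM in 10-day and 854 and 763 CPM in 5-day PD-1- libraries. It was 1.76-fold higher in PD-1+ cells at 10 days (edgeR adjusted p = 0.000372) and 3.26-fold higher at 5 days (edgeR adjusted p = 2.10e-07), without overlap. The liver form of pyruvate kinase, Pklr, had 0 counts in all 8 libraries.

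The 2 lactate dehydrogenase subunits went in opposite directions. Ldha, the subunit that favours making lactate, had 1889 and 1649.5 CPM at 10 days and 5911 and 5079 CPM at 5 days in PD-1+ cells, against 953 and 952 CPM at 10 days and 1194 and 1208 CPM at 5 days in PD-1- cells. Every PD-1+ library lay above every PD-1- library. It was 1.86-fold higher in PD-1+ cells at 10 days (edgeR adjusted p = 4.24e-05) and 4.57-fold higher at 5 days (edgeR adjusted p = 3.58e-09). Ldhb, the subunit of heart that favours the reverse reaction, had 36.3 and 41.5 CPM in 10-day and 17.5 and 13.8 CPM in 5-day PD-1+ libraries, against 44.7 and 50.1 CPM in 10-day and 33.1 and 33.5 CPM in 5-day PD-1- libraries. The 5-day PD-1+ libraries were lowest, and the 10-day PD-1+ libraries lay among the PD-1- libraries. Ldhb was lower in PD-1+ cells over both ages, with a log2 fold change of -0.65 ± 0.22 (edgeR adjusted p = 0.0306) and at 5 days, with -1.09 ± 0.30 (edgeR adjusted p = 0.00934), and was not called at 10 days (edgeR adjusted p = 0.472). The call over both ages was lost without 5-day PD-1- library 2 (edgeR adjusted p = 0.0785), 5-day PD-1+ library 2 (0.0821), 5-day PD-1- library 3 (0.0650) or 5-day PD-1+ library 3 (0.125), with both 5-day libraries numbered 3 left out (0.179), with no filter on low counts (0.0684) and with DESeq2 (adjusted p = 0.0571). The 5-day call was lost without 5-day PD-1+ library 3 (edgeR adjusted p = 0.101).

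**Figure D3:**
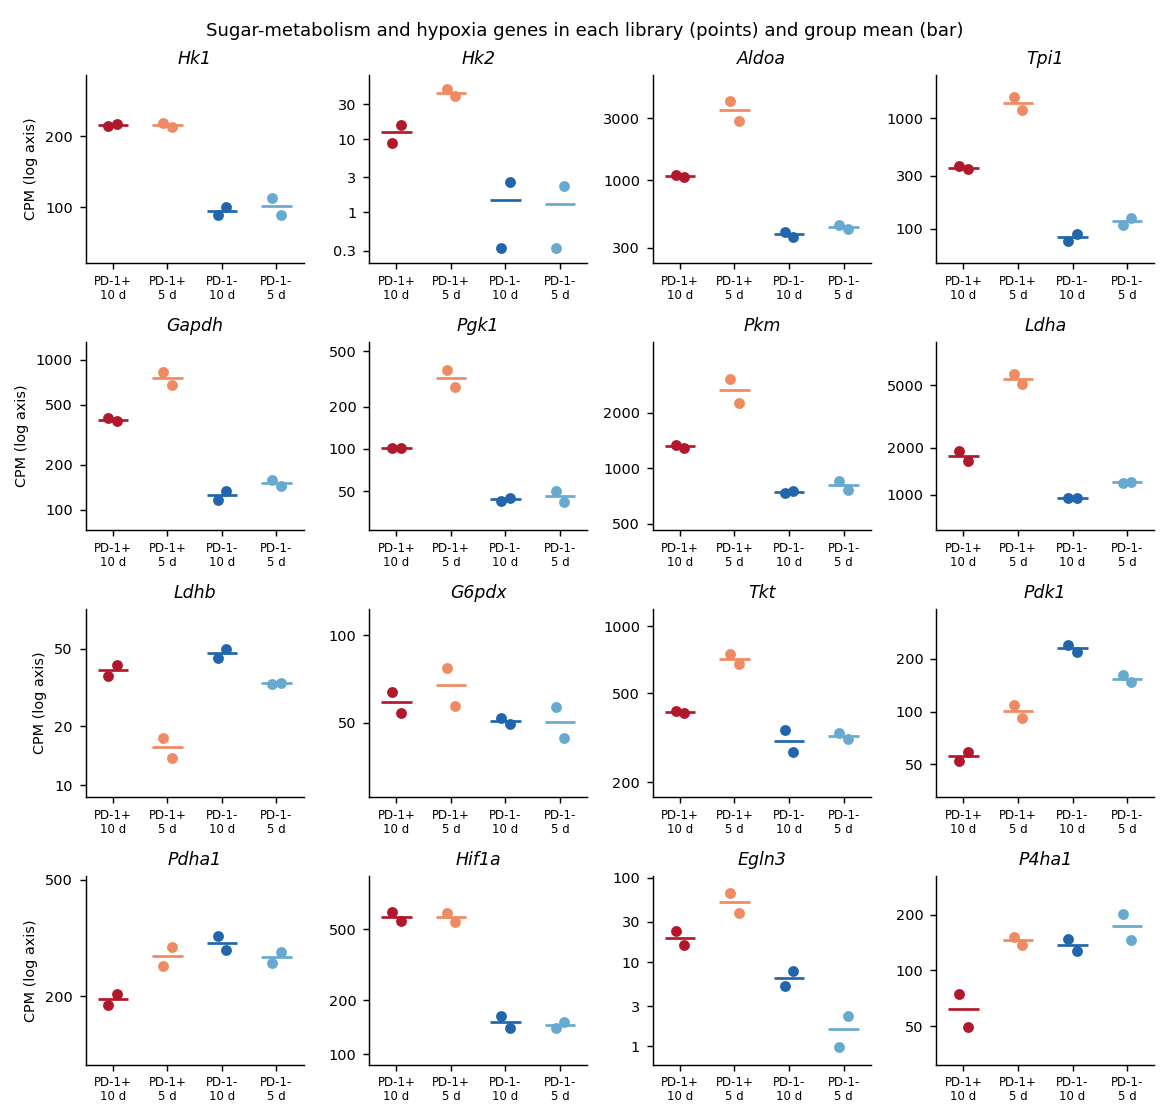
CPM of 16 of the genes (y axes, log scale) in each library (points, 2 per group) with the group mean (bar), PD-1+ groups in red and orange left of PD-1- groups in blue. Tpi1, Aldoa, Pgk1 and Ldha step down between 5-day PD-1+, 10-day PD-1+ and PD-1- libraries, Hk1 and Hif1a are level across ages, and Pdk1 is highest in the 10-day PD-1- libraries at 240 and 219 CPM.

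Among regulators, Pfkfb3, which makes fructose 2,6-bisphosphate, the activator of phosphofructokinase, had 53.1 and 51 CPM at 10 days and 59.7 and 90.7 CPM at 5 days in PD-1+ cells, against 34.3 and 20.8 CPM at 10 days and 20.1 and 22.1 CPM at 5 days in PD-1- cells. It was 2.55-fold higher in PD-1+ cells (edgeR adjusted p = 0.000532), and no libraries overlapped. Its relative Pfkfb4 had 13.9 and 5.62 CPM in 10-day and 1.54 and 11.5 CPM in 5-day PD-1+ libraries, against 16.2 and 13.7 CPM in 10-day and 13.3 and 9.09 CPM in 5-day PD-1- libraries, and was not called (-0.70 ± 0.46 log2, edgeR adjusted p = 0.240). Its 5-day PD-1+ libraries lay far apart. Bpgm, which makes 2,3-bisphosphoglycerate, had the smallest PD-1 difference of the set, with 47.4 and 48.1 CPM at 10 days and 34.0 and 22.4 CPM at 5 days in PD-1+ cells, against 45.3 and 44.2 CPM at 10 days and 28.5 and 29.0 CPM at 5 days in PD-1- cells (0.03 ± 0.20 log2, edgeR adjusted p = 0.907).

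Galk1, the galactokinase that admits galactose, had 22.8 and 34.4 CPM in 10-day and 115 and 75.4 CPM in 5-day PD-1+ libraries, against 18.5 and 13.0 CPM in 10-day and 19.1 and 20.4 CPM in 5-day PD-1- libraries. It was higher over both ages by 1.59 ± 0.31 (edgeR adjusted p = 0.000996) and at 5 days by 2.27 ± 0.31 (edgeR adjusted p = 3.43e-05), and was not called at 10 days, where the difference was 0.83 ± 0.33 (edgeR adjusted p = 0.0670). Phosphoglucomutases link glucose 1-phosphate, the product of glycogen breakdown, to glucose 6-phosphate. The row named Pgm2 had 67.7 and 70.6 CPM at 10 days and 101 and 96.0 CPM at 5 days in PD-1+ cells, against 35.3 and 46.2 CPM at 10 days and 34.3 and 25.6 CPM at 5 days in PD-1- cells, and was 2.35-fold higher in PD-1+ cells (edgeR adjusted p = 0.000316). The row named Pgm1 had 42.4 and 30.2 CPM in 10-day and 30.4 and 46.3 CPM in 5-day PD-1+ libraries, against 50.5 and 46.8 CPM in 10-day and 52.2 and 51.7 CPM in 5-day PD-1- libraries, and was not called (-0.43 ± 0.20 log2, edgeR adjusted p = 0.0953). RefSeq lists each of these symbols as a synonym of the other and the annotation of the table is not given in the sources used here, and which of the 2 loci each row holds is uncertain.

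In the oxidative arm of the pentose phosphate pathway no gene was called over both ages in edgeR, none of the 3 at an unadjusted p below 0.05, and none with DESeq2. G6pdx, the first and rate-limiting enzyme, had 63.8 and 54.1 CPM at 10 days and 77.2 and 57.3 CPM at 5 days in PD-1+ cells, against 52.1 and 49.4 CPM at 10 days and 56.7 and 44.3 CPM at 5 days in PD-1- cells. The groups overlapped, and the difference was 0.31 ± 0.18 on the log2 scale (edgeR adjusted p = 0.181). Pgd, the second NADPH-producing enzyme, had 117 and 104 CPM in 10-day and 194 and 175 CPM in 5-day PD-1+ libraries, against 121 and 126 CPM in 10-day and 104 and 113 CPM in 5-day PD-1- libraries. Only the 5-day PD-1+ libraries stood above the rest, and Pgd was called at 5 days (0.76 ± 0.17 log2, edgeR adjusted p = 0.00209) and not at 10 days (-0.16 ± 0.17, edgeR adjusted p = 0.509). Pgls, the lactonase between them, ranged from 60.9 to 86.4 CPM in PD-1+ and from 64.8 to 104 CPM in PD-1- libraries.

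In the non-oxidative arm, transketolase, Tkt, had 418 and 409 CPM at 10 days and 747 and 676 CPM at 5 days in PD-1+ cells, against 341 and 274 CPM at 10 days and 332 and 314 CPM at 5 days in PD-1- cells. It was 1.72-fold higher in PD-1+ cells over both ages (edgeR adjusted p = 0.000993), and its libraries did not overlap. Taldo1, the transaldolase, had 233 and 230.2 CPM in 10-day and 264 and 257 CPM in 5-day PD-1+ libraries, against 184 and 244 CPM in 10-day and 243 and 233 CPM in 5-day PD-1- libraries, overlapping between populations (0.12 ± 0.13 log2, edgeR adjusted p = 0.466). Rpe, the epimerase, was not called (0.38 ± 0.16 log2, edgeR adjusted p = 0.0593), and became so without 10-day PD-1- library 2 (edgeR adjusted p = 0.0319). Rpia, the isomerase that yields ribose 5-phosphate, was low throughout, with 2.14 and 2.81 CPM at 10 days and 2.57 and 2.86 CPM at 5 days in PD-1+ cells, against 4.86 and 8.46 CPM at 10 days and 1.62 and 8.52 CPM at 5 days in PD-1- cells. These values rest on 25 counts in PD-1+ and 48 counts in PD-1- libraries, and Rpia was not called (-1.10 ± 0.59 log2, edgeR adjusted p = 0.152), except without 5-day PD-1- library 2 (edgeR adjusted p = 0.0494).

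Pdk1, the kinase that switches off pyruvate dehydrogenase, went against the glycolytic genes. It had 52.0 and 59.0 CPM in 10-day and 109 and 91.7 CPM in 5-day PD-1+ libraries, against 239.6 and 219 CPM in 10-day and 161 and 147 CPM in 5-day PD-1- libraries. All PD-1+ libraries lay below all PD-1- libraries, and the 10-day groups were the farthest apart. Pdk1 was lower in PD-1+ cells, with a log2 fold change of -2.05 ± 0.18 at 10 days, a fold of 0.242 (edgeR adjusted p = 1.83e-07), and -0.62 ± 0.17 at 5 days (edgeR adjusted p = 0.0103). The 5-day call was lost without 5-day PD-1- library 2 (edgeR adjusted p = 0.0776) or 5-day PD-1+ library 3 (0.143). Pdha1, the catalytic subunit of pyruvate dehydrogenase, had 188 and 203 CPM at 10 days and 255 and 295 CPM at 5 days in PD-1+ cells, against 321 and 288 CPM at 10 days and 261 and 284 CPM at 5 days in PD-1- cells. It was lower in PD-1+ cells at 10 days, with -0.64 ± 0.15 on the log2 scale (edgeR adjusted p = 0.00396), a call lost without 10-day PD-1- library 1 (edgeR adjusted p = 0.0502), and was not called at 5 days (0.02 ± 0.15, edgeR adjusted p = 0.952).

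Of the 4 hypoxia genes, 3 were higher and 1 was lower in PD-1+ cells over both ages. Hif1a, which encodes HIF-1 alpha, had 623 and 555 CPM in 10-day and 619 and 552 CPM in 5-day PD-1+ libraries, against 164 and 139.8 CPM in 10-day and 141 and 151 CPM in 5-day PD-1- libraries. The PD-1+ libraries of both ages fell in 1 narrow band far above the PD-1- libraries. Its difference had the smallest p of the 36 genes, 3.94-fold over both ages (1.98 ± 0.13 log2, edgeR adjusted p = 2.42e-08). Egln3, an oxygen-sensing prolyl hydroxylase that itself responds to HIF-1, had 23.2 and 15.8 CPM at 10 days and 65.9 and 38.7 CPM at 5 days in PD-1+ cells, against 5.18 and 7.81 CPM at 10 days and 0.972 and 2.27 CPM at 5 days in PD-1- cells. The libraries did not overlap, and within PD-1- cells the 10-day libraries were the higher ones. Egln3 was higher in PD-1+ cells by 1.64 ± 0.44 at 10 days (edgeR adjusted p = 0.00939) and by 5.10 ± 0.52 at 5 days (edgeR adjusted p = 1.56e-06), where the PD-1- libraries had 3 and 4 counts. Bnip3, a mitophagy receptor, had 8.55 and 2.46 CPM in 10-day and 13.9 and 11.5 CPM in 5-day PD-1+ libraries, against 1.94 and 1.95 CPM in 10-day and 3.56 and 1.14 CPM in 5-day PD-1- libraries, and was 3.81-fold higher over both ages (edgeR adjusted p = 0.0103). Its 5-day call (2.30 ± 0.72, edgeR adjusted p = 0.0213) was lost without 5-day PD-1+ library 2 (edgeR adjusted p = 0.10), PD-1- library 3 (0.104) or PD-1+ library 3 (0.0508), and its call over both ages without both libraries numbered 3 (0.0542). P4ha1, a collagen prolyl hydroxylase subunit, had 74.4 and 49.5 CPM at 10 days and 152 and 138 CPM at 5 days in PD-1+ cells, against 148 and 127 CPM at 10 days and 203 and 146 CPM at 5 days in PD-1- cells. The 10-day PD-1+ libraries stood below all others, and P4ha1 was lower in PD-1+ cells at 10 days, with -1.16 ± 0.22 on the log2 scale (edgeR adjusted p = 0.000726), and was not called at 5 days (-0.27 ± 0.21, edgeR adjusted p = 0.342).

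Markers of other cells and of mitosis also differed between the populations. The 10 hepatocyte markers summed to 71.6 and 58.0 CPM in 10-day and 56.6 and 22.0 CPM in 5-day PD-1+ libraries, against 5.51 and 5.20 CPM in 10-day and 9.07 and 2.27 CPM in 5-day PD-1- libraries. Of these, 3 could be tested and all 3 were higher. Among markers with few counts, Pck1 had 4 counts in PD-1+ and 0 in PD-1- libraries, and Serpina1a 10 and 0. G6pc went against the sum, with 2 counts in PD-1+ and 7 counts in PD-1- libraries. The 10 mitotic markers summed to 1616 and 2018 CPM in 10-day and 3928 and 4100 CPM in 5-day PD-1+ libraries, against 1012 and 1671 CPM in 10-day and 1468 and 2603 CPM in 5-day PD-1- libraries, and 8 of 10 were higher in PD-1+ cells. Summed levels of 6 further lists did not overlap between the populations. Dendritic cell markers stood at 31.9 to 74.4 CPM in PD-1+ and 9.40 to 22.3 CPM in PD-1- libraries (1 of 3 tested higher). Within that list Siglech went against the sum, with 1 count in PD-1+ and 34 counts in PD-1- libraries, as did Cd209a, with 1 and 3. Gamma-delta T cell markers stood at 23.2 to 42.7 CPM in PD-1+ and 6.16 to 18.9 CPM in PD-1- libraries (2 of 3 higher). Lower in sum were B cell markers, at 292 to 356 CPM in PD-1+ and 546 to 641 CPM in PD-1- libraries (1 of 6 tested lower), and endothelial and stromal markers, at 102 to 145 CPM in PD-1+ and 299 to 378 CPM in PD-1- libraries (1 of 1 lower). Only that 1 of the 8 endothelial and stromal markers had enough counts to be tested. Among the others, Cdh5 had 2 counts in PD-1+ and 9 counts in PD-1- libraries, and Kdr had 3 and 4. Col1a1 went against the sum, with 23 and 0 counts, as did Lyve1 (2 and 0) and Pdgfrb (3 and 0). CD8 T cell markers stood at 6.18 to 27.4 CPM in PD-1+ and 27.5 to 47.6 CPM in PD-1- libraries (1 of 2 lower), and erythroid markers at 2.81 to 5.70 CPM in PD-1+ and 11.1 to 30.1 CPM in PD-1- libraries (1 of 1 lower). The macrophage, neutrophil and NK lists overlapped between the populations. The part of other cells in the differences was not tested.

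The balance between isoforms of 1 enzyme was compared as the log2 ratio of their CPM (with 0.5 added) within a library, which depends little on the scaling of libraries. Of 8 pairs, 6 differed between the 4 PD-1+ and the 4 PD-1- libraries with complete separation, at the smallest p that 70 splits allow in a two-sided exact permutation test (p = 0.0286, adjusted over the 8 pairs 0.0381). The Hk2 to Hk1 ratio was 0.0402 and 0.0700 in 10-day and 0.210 and 0.176 in 5-day PD-1+ libraries, against 0.00350 and 0.0260 in 10-day and 0.00296 and 0.0245 in 5-day PD-1- libraries. Its mean log2 ratio was -3.27 ± 1.10 in PD-1+ and -5.99 ± 1.10 in PD-1- libraries (SD, n = 4 each), 2.72 higher (exact permutation test, adjusted p = 0.0381). All PD-1+ libraries had relatively more Hk2.

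The Ldhb to Ldha ratio was 0.0192 and 0.0251 in 10-day and 0.00296 and 0.00273 in 5-day PD-1+ libraries, against 0.0469 and 0.0526 in 10-day and 0.0277 and 0.0277 in 5-day PD-1- libraries. The mean log2 ratio was -6.95 ± 1.70 in PD-1+ and -4.74 ± 0.49 in PD-1- libraries (SD, n = 4 each), a difference of -2.22 (exact permutation test, adjusted p = 0.0381), made of -1.17 at 10 days and -3.26 at 5 days. Relative to their dominant partners, Pfkm (against Pfkp), Eno3 (against Eno1) and Pfkfb4 (against Pfkfb3) were lower in PD-1+ libraries, with log2 differences of -1.81, -1.75 and -2.33, and the Pgm2 row was higher against the Pgm1 row by 1.69 (exact permutation test, adjusted p = 0.0381 each). The Pfkl to Pfkp ratio differed by -0.54 (exact permutation test, adjusted p = 0.0980), with -0.97 at 10 days and -0.12 at 5 days. The Aldoc to Aldoa ratio differed by -1.17 (exact permutation test, adjusted p = 0.229), with opposite signs at 10 days (0.40) and 5 days (-2.75).

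**Figure D4:**
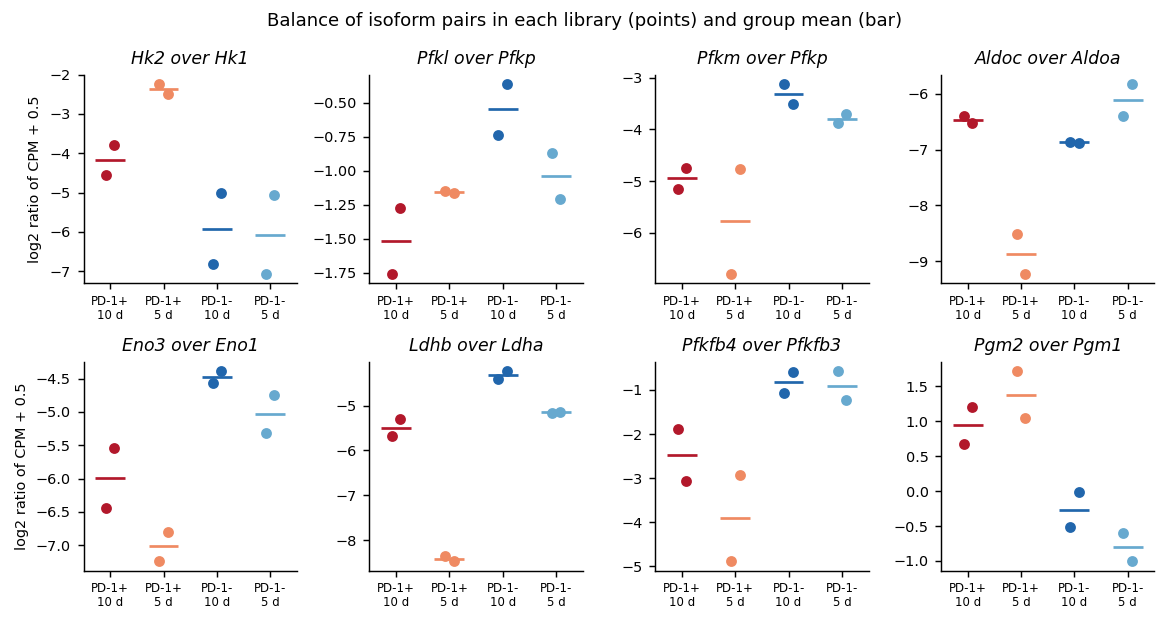
log2 ratio of 2 isoforms within a library (y axes, CPM with 0.5 added) for 8 pairs, with each library as a point, the group mean as a bar, and PD-1+ groups left of PD-1- groups. The Hk2 over Hk1 and Pgm2 over Pgm1 ratios are higher in every PD-1+ library, the Ldhb over Ldha ratio lower in every PD-1+ library, and the Aldoc over Aldoa ratio is mixed.

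Within PD-1+ cells, most glycolytic genes were lower at 10 days than at 5 days, and no member was called within PD-1- cells. In PD-1+ cells, 19 of 36 genes were lower at 10 days, 1 was higher and 16 were not called (edgeR), against 6.98% lower and 7.39% higher among all genes tested. The median log2 fold change of the 36 genes was -0.70, against 0.05 over all genes tested. In PD-1- cells, edgeR and DESeq2 called 0 of 36 genes in either direction, 7 had an unadjusted edgeR p below 0.05, and the median was -0.05. Over all genes tested in PD-1- cells, 0.122% were lower and 0.148% higher.

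The lower genes covered upper and lower glycolysis, 12 of the 17 genes from hexokinase to lactate dehydrogenase. Ldha fell by 1.63 on the log2 scale (SE 0.13, edgeR adjusted p = 6.34e-07), Tpi1 by 1.95 (SE 0.16, 1.40e-06), Aldoa by 1.70 (SE 0.16, 4.35e-06) and Pgk1 by 1.65 (SE 0.18, 1.97e-05). Eno1 and Pkm fell by 1.6 and 1.01 (edgeR adjusted p = 5.52e-05 and 0.000239). These 6 had the smallest p among the members, and each had both 10-day PD-1+ libraries below both 5-day ones. That order held for 26 of the 36 genes (72.2%), and the opposite order for 3 (8.33%), against 27.2% and 31.3% of all genes tested.

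Outside the glycolytic stretch, Galk1 (-1.73 ± 0.30, edgeR adjusted p = 0.00106), P4ha1 (-1.23 ± 0.22, 0.00142), Tkt (-0.78 ± 0.15, 0.00199) and Pdk1 (-0.85 ± 0.18, 0.00451) were also lower at 10 days in PD-1+ cells. Ldhb was the 1 gene that was higher, by 1.31 ± 0.29 (edgeR adjusted p = 0.00652), a call lost without 5-day PD-1+ library 3 (edgeR adjusted p = 0.0780). Hk1 and Hif1a showed log2 differences of 0.00 ± 0.16 and 0.01 ± 0.15 between ages in PD-1+ cells. Of the 19 lower calls, 6 were lost without single libraries, all of them PD-1+. Without 5-day library 2, the adjusted p was 0.0554 for Gpi1, 0.0702 for Pdk1, 0.0820 for Pgd, 0.278 for Egln3, 0.180 for Hk2 and 0.0790 for Pdha1 (edgeR). Without 10-day library 2 it was 0.0580 for Pgd, 0.120 for Egln3 and 0.0828 for Pdha1, without 10-day library 1 0.152 for Hk2 and 0.195 for Pdha1, and without 5-day library 3 0.0700 for Hk2 and 0.240 for Pdha1 (edgeR). Of the 10 mitotic markers, 6 were also lower at 10 days in PD-1+ cells, and their part was not tested. The hepatocyte sum in PD-1+ cells was 71.6 and 58.0 CPM at 10 days and 56.6 and 22.0 CPM at 5 days. Neither that difference nor the part of hepatocyte RNA was tested.

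**Figure D5:**
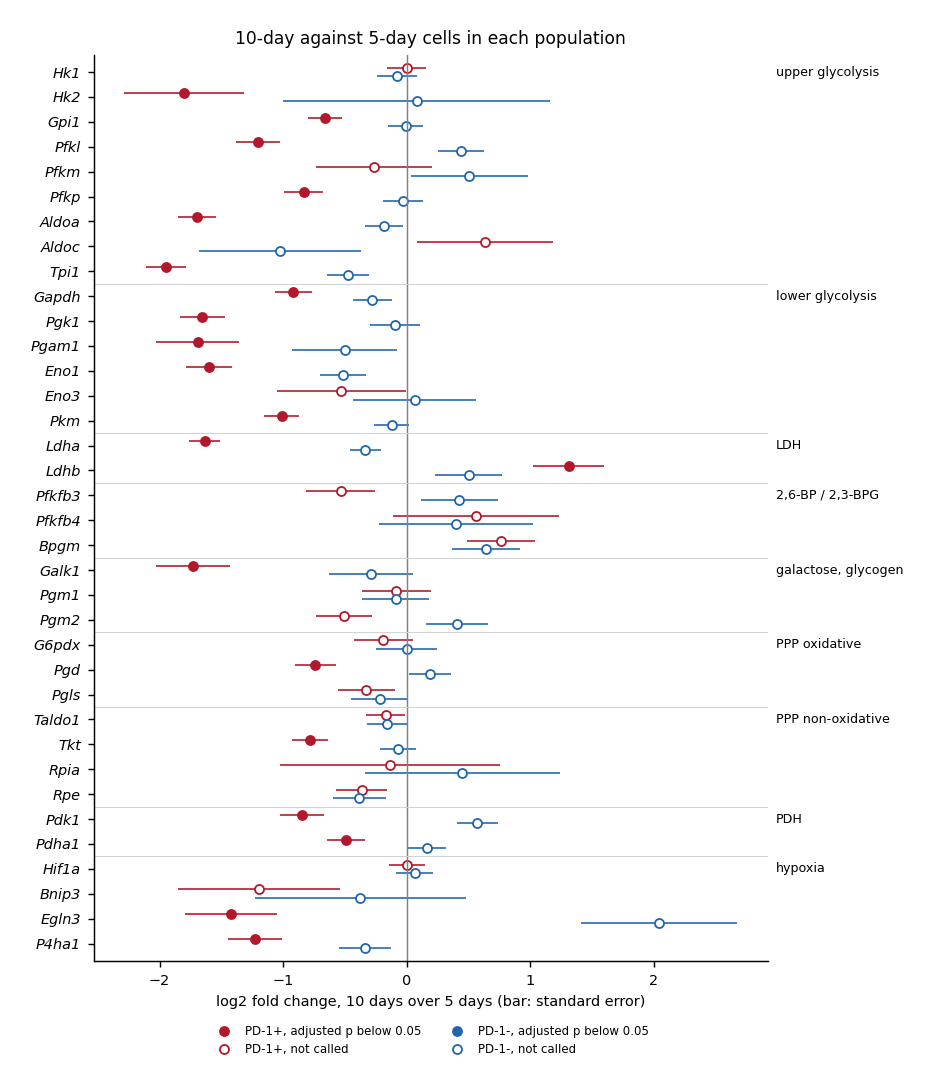
log2 fold change of 10-day over 5-day cells (x axis) for each of the 36 genes (y axis, grouped by role) in PD-1+ cells (red) and PD-1- cells (blue), with standard errors as bars and filled points for an adjusted p below 0.05. Glycolytic genes in PD-1+ cells lie to the left, with Tpi1 at -1.95, Ldhb lies to the right at 1.31, and no blue point is filled.

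The difference between the PD-1 effects at the 2 ages was tested directly as an interaction, the PD-1 effect at 10 days minus that at 5 days. It was negative and called in edgeR for 9 of 36 genes and positive for none, against 0.923% negative and 1.2% positive over all genes tested, 2.12% in all. An unadjusted p below 0.05 was reached by 20 members, and DESeq2 called 12 negative and 0 positive. The smallest adjusted p were those of Ldha (-1.30 ± 0.18, edgeR adjusted p = 0.000880), Aldoa (-1.51 ± 0.22, 0.00148), Pfkl (-1.64 ± 0.26, 0.00290), Tpi1 (-1.47 ± 0.23, 0.00290), Pdk1 (-1.42 ± 0.24, 0.00590) and Pgk1 (-1.56 ± 0.27, 0.00622). For 5 of these the PD-1+ excess was smaller at 10 days than at 5 days, and for Pdk1 the PD-1+ deficit was larger at 10 days. Hk1 and Hif1a had interaction terms of 0.08 ± 0.23 and -0.06 ± 0.21 (edgeR adjusted p = 0.925 and 0.944). Egln3 (-3.46 ± 0.73, edgeR adjusted p = 0.0215) lost its call without 10-day PD-1- library 2 (0.0700), 5-day PD-1- library 2 (0.0948) or 5-day PD-1+ library 2 (0.104). Eno1 (-1.09 ± 0.26, edgeR adjusted p = 0.0438) and Pkm (-0.89 ± 0.20, 0.0316) kept theirs without 5-day PD-1- library 2 or 5-day PD-1+ library 3, and lost them without each of the other 6, with edgeR adjusted p of 0.0794 to 0.190 for Eno1 and 0.0515 to 0.178 for Pkm.

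Of 76 further symbols in a list of isoforms, gluconeogenesis, glycogen, shuttle, pyruvate dehydrogenase and hypoxia genes, 59 could be tested, and 17 were higher, 11 lower and 31 not called in PD-1+ against PD-1- cells over both ages (edgeR), against 21.9% higher and 19.6% lower among all genes tested, with a median log2 fold change of 0.17. Of the 12 genes of pyruvate entry and the pyruvate dehydrogenase complex, 3 were higher and 2 lower, against the same shares of all genes. All 3 other Pdk kinases were called. Pdk2 was lower, with 8.19 and 4.22 CPM in 10-day and 1.54 and 0.477 CPM in 5-day PD-1+ libraries, against 18.1 and 16.3 CPM in 10-day and 27.5 and 10.8 CPM in 5-day PD-1- libraries (-2.42 ± 0.54 log2, edgeR adjusted p = 0.00289), as was Pdk1. Pdk3, named after its values were seen, was higher, with 109 and 97.0 CPM at 10 days and 109 and 97.9 CPM at 5 days in PD-1+ cells, against 52.8 and 42.3 CPM at 10 days and 48.9 and 46.6 CPM at 5 days in PD-1- cells (1.11 ± 0.15 log2, edgeR adjusted p = 5.01e-05). Pdk4, induced by fasting and glucocorticoids in other tissues, had 37 and 3 counts in 10-day and 26 and 6 counts in 5-day PD-1+ libraries, against 0 counts in all PD-1- libraries. With libraries pooled, Pdk4 was at least 21.2-fold higher in PD-1+ cells, taking a floor of 3 counts over the PD-1- libraries (edgeR adjusted p = 0.0104). That bound does not hold for each library, since most of the 72 pooled PD-1+ counts came from 10-day library 1 and 5-day library 2.

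Of 18 tested genes of the hypoxia-inducible factor pathway, 6 were higher, 3 lower and 9 not called, against 21.9% higher and 19.6% lower among all genes tested. Epas1, which encodes HIF-2 alpha, had 17.8 and 23.5 CPM in 10-day and 30.9 and 11.5 CPM in 5-day PD-1+ libraries, against 6.48 and 3.25 CPM in 10-day and 1.94 and 1.70 CPM in 5-day PD-1- libraries (2.62 ± 0.44 log2, edgeR adjusted p = 0.000256), and no PD-1+ library fell among the PD-1- libraries. Ddit4, an inhibitor of mTORC1 signalling, was higher by 1.90 ± 0.39 (edgeR adjusted p = 0.00132) and Plod2, a collagen lysyl hydroxylase, by 2.67 ± 0.79 (edgeR adjusted p = 0.0139). P4ha2, the isoform partner of P4ha1, was lower, with -3.27 ± 0.85 log2 (edgeR adjusted p = 0.00629), on 5 counts in PD-1+ and 56 counts in PD-1- libraries. Vegfa, a widely used hypoxia marker, had 3 counts in each population. Adpgk, an ADP-dependent glucokinase, ran against Hk1 and Hk2, with 27.8 and 29.9 CPM at 10 days and 55.1 and 45.4 CPM at 5 days in PD-1+ cells, against 149.9 and 122 CPM at 10 days and 159 and 92.0 CPM at 5 days in PD-1- cells (-1.78 ± 0.23 log2, edgeR adjusted p = 3.10e-05), and Pfkfb2, a relative of Pfkfb3, was lower, with -1.97 ± 0.67 log2 (edgeR adjusted p = 0.0277). In the comparison of ages in PD-1+ cells, 4 of these 59 genes were higher and 6 lower at 10 days, against 7.39 and 6.98% of all genes tested. None of the 59 was called in the interaction (edgeR), against 2.12% of all genes tested.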

How the data were processed

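The authors deposited 1 table of raw gene counts, with gene symbols as its lines and a column for each of the 8 libraries. Per the labels' protocols, polyadenylated RNA was primed with oligo(dT), amplified, tagmented and sequenced as paired reads of 25 bases. STAR 2.5.4, featureCounts and the mm10 build appear in the submitters' processing notes. Annotation, strandedness and treatment of reads with several matches were not given in the sources used here.

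Columns were matched to samples by title, with 0 columns left unused. Genes were kept by filterByExpr and tested with edgeR 4.0.16 in R 4.3.3 (TMM scaling, robust quasi-likelihood F tests), with age and PD-1 as additive terms over both ages and a model of the 4 groups for the other comparisons. P-values were adjusted by Benjamini-Hochberg over all 11490 genes tested, and genes with an adjusted p below 0.05 were called. A standard error was taken as the size of a log2 fold change over the root of its F. Isoform ratios were tested by exact permutation of the 8 libraries, without regard to age. Exon lengths and gene models came from GENCODE M21 and promoter windows from RefSeq, both on GRCm38. Only the edgeR test over both ages was tried on simulated data, with PD-1 differences and no age differences. The other comparisons and the permutation test were not simulated. The members, the lists and the rule for named genes were chosen with earlier results of these data known. That rule took the 3 largest PD-1 differences in each direction and the 3 smallest, up to 6 members called in the interaction and in each age comparison, both genes of each isoform pair, and Hk1, Hk2, Gapdh, Pgk1, Pkm, Ldha, G6pdx, Pdk1 and Hif1a. Of the other pathway genes it took the 4 largest calls in each direction. Alternatives were DESeq2 1.42.0, other scalings, no filter on low counts, another pseudocount, a replicate block, leaving out each library and, added after the data were seen, leaving out both 5-day libraries numbered 3.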

Additional observations from a re-analysis of the deposited data

Results flagged for a closer look

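The PD-1 effect differed between the ages for 9 genes by the direct test of that difference, the effect at 10 days minus that at 5 days on the log2 scale (edgeR interaction term, Benjamini-Hochberg adjusted). The values were -1.64 ± 0.26 for Pfkl (edgeR adjusted p = 0.00290), -1.51 ± 0.22 for Aldoa (0.00148), -1.47 ± 0.23 for Tpi1 (0.00290) and -1.56 ± 0.27 for Pgk1 (0.00622). They were -1.09 ± 0.26 for Eno1 (edgeR adjusted p = 0.0438), -0.89 ± 0.20 for Pkm (0.0316) and -1.30 ± 0.18 for Ldha (0.000880). Pdk1, which was lower in PD-1+ cells at both ages, had -1.42 ± 0.24 (edgeR adjusted p = 0.00590), and Egln3 had -3.46 ± 0.73 (0.0215). The 8 genes other than Pdk1 were higher in PD-1+ cells over both ages. The 10 mitotic markers summed to 1616 and 2018 CPM at 10 days and to 3928 and 4100 CPM at 5 days in the same PD-1+ libraries, and both 5-day libraries numbered 3 differed in sex from the rest. With both of those libraries left out, 7 genes were called in this direction. The part of the mitotic markers was not tested, and groups of 2 libraries are too small for a check of single libraries that stand apart.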

How the results depend on the processing

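Of the 23 genes called over both ages, 20 kept their direction and call under every alternative, the exceptions being Pfkl, Ldhb and Bnip3. Of the 13 not called, 6 kept their direction and stayed uncalled under every alternative, the exceptions being Pfkm, Aldoc, Bpgm, Pgm1, Rpia, Rpe and Pdha1. Upper-quartile scaling gave 5 lower genes over both ages in place of 3. Left out one at a time, libraries gave 19 to 21 higher and 2 to 3 lower genes over both ages, 12 to 18 and 2 to 3 at 10 days, 20 to 21 and 1 to 2 at 5 days, 0 to 1 higher and 13 to 19 lower at 10 days in PD-1+ cells, and 6 to 9 negative interactions. The 5-day lower count was 1 without 5-day PD-1- library 2 or 5-day PD-1+ library 3. Leaving out both 5-day libraries numbered 3, an alternative chosen after seeing the data, gave 1 lower gene at 5 days and 0 higher at 10 days in PD-1+ cells. Pfkm, at -0.06 over both ages, changed sign without 10-day PD-1- library 1 (0.15), 10-day PD-1+ library 1 (0.04), 10-day PD-1+ library 2 (0.02) or 5-day PD-1+ library 2 (0.16), within a range of -0.55 to 0.16, and Bpgm, at 0.03, with upper-quartile scaling (-0.052) or without 5-day PD-1+ library 2 (-0.054). The cause was not tested. The 8 isoform differences kept their sign with each library left out, with no test run. That of Aldoc to Aldoa, -1.17, ranged from -1.60 to -0.66, the last without 5-day PD-1+ library 3. Libraries with the same number deviated together with r = 0.104 at 10 days and 0.0825 at 5 days over all genes tested, and with 0.273 and 0.231 over the 5478 genes above 30 CPM. Both 5-day libraries numbered 3 also shared their sex. The labels do not say what a number marks, and the numbers were not taken as pairs. A replicate block gave 20 higher and 3 lower genes over both ages and 13 negative interactions in place of 9. Depth limits genes of low counts, such as Hk2 with 10 counts over the PD-1- libraries.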

Other observations

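Of 9 tested genes of galactose and glycogen handling outside the 36, named here after their values were seen, 4 were higher, 2 lower and 3 not called in PD-1+ against PD-1- cells over both ages (edgeR), against 21.9% higher and 19.6% lower among all genes tested. Galm, the galactose mutarotase, had a log2 fold change of 1.70 ± 0.31 and was higher (edgeR adjusted p = 0.000554), and Ugp2, which makes UDP-glucose, was higher by 1.62 ± 0.21 (edgeR adjusted p = 2.37e-05). Glycogen phosphorylases divided, the brain form Pygb being higher, with 0.64 ± 0.13 (edgeR adjusted p = 0.00112), and the muscle form Pygm lower, with -1.25 ± 0.24 (edgeR adjusted p = 0.000882). From the list of glycerol phosphate and shuttle genes, 3 were picked outside the rule for named genes, with their values known. Both aspartate aminotransferases were higher, Got1 by 1.35 ± 0.17 (edgeR adjusted p = 2.42e-05) and Got2 by 1.18 ± 0.16 (edgeR adjusted p = 4.91e-05). Gpd1l, a relative of glycerol 3-phosphate dehydrogenase, was lower, with -0.74 ± 0.17 (edgeR adjusted p = 0.00332). Gpd1, Gpd2, Mdh1 and Mdh2 of that list are not described here. The same shares of all genes tested, 21.9% higher and 19.6% lower, apply.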
